A study of Mus musculus with 6 samples.

Results

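The cytoplasmic ribosomal protein genes encode the proteins of the cytosolic ribosome. They were taken here as the rows of the deposited array table whose platform annotation gave exactly 1 gene symbol of the ribosomal protein pattern (Rpl or Rps with a number, the Rplp genes of the stalk, and Rpsa), without pseudogenes and without the Rps6k kinases. Where a gene had several rows, the row with the highest 6-array mean was used. This gave 67 genes of the 22180 tested. Of these, 23 encode canonical proteins of the small subunit, 35 encode canonical proteins of the large subunit, and 9 are paralogs or gene copies (Rpl3l, Rpl6l, Rpl7l1, Rpl10l, Rpl22l1, Rpl32l, Rpl39l, Rps4l and Rps27l). Of the 77 canonical genes whose symbols fit the pattern, 58 were thus covered. The others were not analysed here, among them 12, such as Rps2, Rpl10 and Rpl13a, that lay only on rows shared by several symbols.

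The samples were mouse myeloid cells from fetal liver, and all of them were grown with 1 ng/ml GM-CSF, a cytokine that sustains granulocyte and macrophage precursors. The 3 uninduced samples had no doxycycline, and the 3 induced samples received 1000 ng/ml doxycycline over 72 hours, which the labels give as PU.1 expression. PU.1, the product of Spi1, belongs to the ETS family of transcription factors and drives myeloid and B cell fates. The labels name no construct, promoter or clone and include no doxycycline control without PU.1, so drug and PU.1 cannot be told apart. Each sample was hybridised to its own Affymetrix Mouse Gene 2.0 ST array, so the precision of every group rests on 3 values.

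A ribosome is built from ribosomal RNA and a set of proteins, most of them needed in equal numbers. The genes of these proteins are usually regulated together. Their mRNAs commonly begin with a terminal oligopyrimidine (TOP) tract, a C followed by a run of C and T bases. Through this tract the mTORC1 kinase pathway and the RNA-binding protein Larp1 set how well these mRNAs are translated. Ribosomal protein mRNAs are abundant in growing cells, and loss of 1 copy of several of the genes causes Diamond-Blackfan anaemia, a failure of red cell production.

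The starts of 6 members are shown because they carry the sequence that defines the class. Each line gives 20 bases before and 10 bases from the RefSeq start on the coding strand (GRCm38.p6), with a C and the 4 following C or T bases at the start in capitals.
Rps6 (chr4:86857358-86857387, minus strand): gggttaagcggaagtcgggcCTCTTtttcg
Rps18 (chr17:33955656-33955685, minus strand): acttatacgtcacttccgctCTCTCttcca
Rpl14 (chr9:120571497-120571526, plus strand): cggcagggcgggccctctctCTTCTcgctg
Rpl15 (chr14:18270977-18271006, minus strand): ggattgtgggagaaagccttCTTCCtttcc
Rpl28 (chr7:4792945-4792974, plus strand): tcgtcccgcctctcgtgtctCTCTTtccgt
Rpl38 (chr11:114668560-114668589, plus strand): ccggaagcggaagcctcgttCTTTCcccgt

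RefSeq start windows were found for 52 of the 67 members, 61 windows in all. A TOP start of this form, read on the coding strand and exactly at the annotated start, was present in 18.0% of the members' windows and in 2.51% of all 32851 windows of equal length. An annotated start that is off by a few bases hides such a match. The ETS-type letters CCGGAAG, searched on both strands over the 300 bases from 250 before to 50 after the start, were present in 37.7% of the members' windows and in 8.86% of all windows. The letters GAGGAAG, the core of sites that PU.1 prefers, were present in 13.1% and 13.6%. The letters AAGATGGC, a YY1-type site, were present in 4.92% and 2.75%. CCGGAAG and GAGGAAG cannot both match the same GGAAG on a strand. The 11 members with a TOP start had a median log2 difference (induced minus uninduced) of 0.00, between -0.48 and 0.40, and the 41 others with a window had a median of -0.21, between -0.87 and 0.62. Medians were -0.13 for the 23 members with CCGGAAG and -0.18 for the 29 without. They were -0.04 for the 7 with GAGGAAG and -0.18 for the 45 without. All these medians are of the values as deposited, in which a difference moved with a gene's level, and no contrast between them was tested. A mean log2 value of 10 or more was reached by 6 of the 11 members with a TOP start and 16 of the 41 without.

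Induced cells were compared with uninduced cells to ask what differs once PU.1 is expressed. The series' title links PU.1 to exit from the cell cycle. In the following, change means the log2 difference, induced minus uninduced. No ribosomal protein gene passed the test. By limma, fitted over all 22180 genes with Benjamini-Hochberg adjustment, 0 of 67 members had an adjusted p under 0.05, against 1.42% of all genes (0.374% higher and 1.05% lower). At 67 genes such a share comes to about 1 gene, so the count of 0 does not set the members apart. At an unadjusted p under 0.05, 2 members were higher and 10 lower (2.99% and 14.9%, against 11.4% and 16.9% of all genes). All 3 induced values lay below all 3 uninduced values for 5 members and above them for 3 (7.46% of members below and 4.48% above, against 15.4% and 16% of all genes). Neither comparison is matched for level, for which shares are given below. Centring the arrays on the members' own median turned the split over all genes to 1.88% higher and 0.248% lower and called 1 member, Rpl39l, higher. That centring is set by the members' own values and adds 0.34 to every change, so the members' values under it are not a separate result. Weighting the arrays by quality called 5 members higher and 30 lower, against 26.3% and 25.6% of all genes. No label states whether the replicates came from separate cultures, and the p-values therefore reflect variation among these 6 samples that could be technical alone. In RNA from bulk cells, fewer cells of a type and less RNA per cell cannot be told apart.

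The members' log2 changes ran from -0.87 for Rpl34 to 0.62 for Rpl39l, with a median of -0.17, or 1.12-fold lower on the linear scale, against a median of 0.06 over all genes (members 0.17 with the arrays centred on the members' own median). The change was below 0 for 46 of 67 members (68.7%, against 44% of all genes). The small subunit genes had a median of -0.20, with 16 of 23 below 0, and the large subunit genes a median of -0.13, with 27 of 35 below 0 (0.01 and 0.03 after cyclic loess, a normalization that removes shifts that depend on level, and 0.14 and 0.21 with that centring). The 9 paralogs and gene copies had a median of 0.10, with 3 below 0 (after cyclic loess -0.03, with 6 below 0). The 6 with changes above 0 lay under the background reference given below on all 6 arrays. The other 3, Rpl6l, Rpl7l1 and Rps27l, lay above it on all arrays and were at -0.30, -0.49 and -0.35. The 3 induced arrays were not alike. The median deviation of the 67 members from their uninduced mean was 0.02 on induced A, -0.21 on induced B and -0.23 on induced C. On induced A, 8 members lay below all 3 uninduced values and 17 above them (24.4% and 23.7% of all genes did). On induced B the counts were 37 and 11 (36.1% and 44% of all genes), and on induced C 39 and 11 (35.6% and 42.7%). The median SD of a member was 0.14 in the uninduced and 0.23 in the induced group (n = 3 each), and over all genes 0.15 and 0.17.

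**Figure D1:**
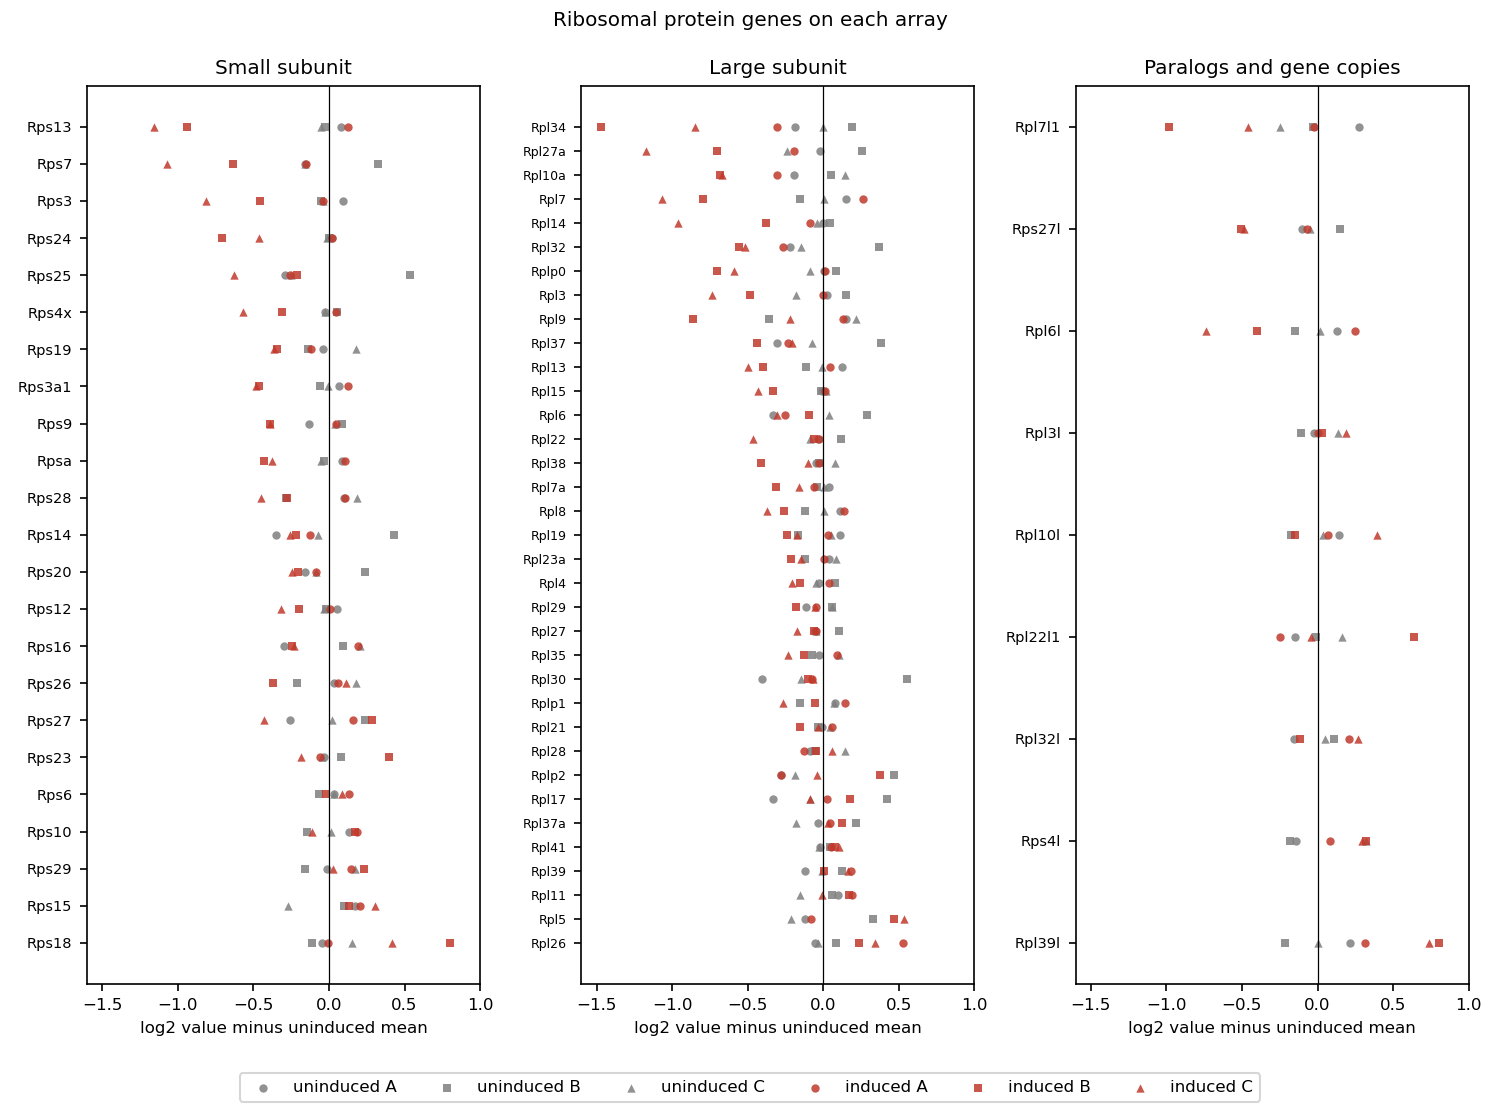
Each row is 1 of the 67 ribosomal protein genes, and each point is 1 array, plotted as its log2 value minus the gene's mean over the 3 uninduced arrays (grey uninduced, red induced; circle A, square B, triangle C). Induced A lies among the uninduced values for 42 of 67 genes, while induced B and induced C lie below all uninduced values for 37 and 39.

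The width of the value distribution moved with the same arrays. The interquartile range over all rows was 2.17 on induced B and 2.21 on induced C, and 2.37 to 2.62 on the other 4 arrays, so the deposited values share no common distribution. A gene's change moved with its level. As a reference for the background, the 95th percentile of 1394 olfactory and vomeronasal receptor genes lay between 7.05 and 7.99 on the 6 arrays, with a mean of 7.50. Among all 13920 genes with a mean below that, 19.9% had a change below 0. Among the 1153 genes with a mean of 10 or more the share was 88.6%. The 30 members with a mean of 10 or more were below 0 in 28 cases (93.3%), with a median of -0.18, and the other 1123 genes at that level had a median of -0.29. The 15 members between had a median of -0.37, and the other 7092 genes there -0.32. The 22 members below the reference had a median of 0.07, and the other 13898 genes there 0.17. At an unadjusted p under 0.05 by limma, 16.7% of the members at 10 or more were lower, against 33.2% of all genes there. Between, the shares were 33.3% and 40.2%, and below the reference 0% and 3.64%. Members higher at that p were only below the reference (9.09%, against 15.3% of all genes there). All 3 induced values lay below the uninduced ones for 13.3% of members at 10 or more, against 30.2%. Between, the shares were 6.67% and 34.2%. Cyclic loess left 34 members below 0 and 33 above, with a median of -0.02 (all genes -0.01). It left 0 members past the threshold (0.992% of all genes passed). After it, all genes between the background reference and 10 still had a median of -0.09, and those at 10 or more 0.00. The shift with level was thus not removed in full. Centring on the array median shifted every change by -0.14, and the median of the members was then -0.31. Centring on the members' median shifted every change by 0.34. Without induced A, 18 members were lower and 2 higher at an adjusted p under 0.05 by limma (26.9% and 2.99%, against 15.9% and 9.01% of all genes). The 7 lower genes of the small subunit were Rps13, Rps7, Rps3, Rps24, Rps3a1, Rps4x and Rpsa, the 8 of the large subunit were Rpl34, Rpl27a, Rpl7, Rpl10a, Rpl14, Rplp0, Rpl3 and Rpl13, and Rpl7l1, Rpl6l and Rps27l were the others. Among genes with a mean of 10 or more, the calls lower were 9 of 30 members (30.0%) and 38.8% of all genes. The other lower members were Rpl34, Rps13, Rpl27a, Rpl7, Rps7, Rpl7l1, Rps24, Rps27l and Rpl13. These were among the 15 members with a mean between the background reference and 10. The share of all genes at that level called lower without induced A was not computed. The 26.9% of members and 15.9% of all genes are therefore not matched for level. With induced A alone against the uninduced arrays, where its spread is assumed equal to theirs, no member was called (0.185% and 0.0857% of all genes were called higher and lower). The part of the arrays' distributions in the members' changes was not tested.

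**Figure D2:**
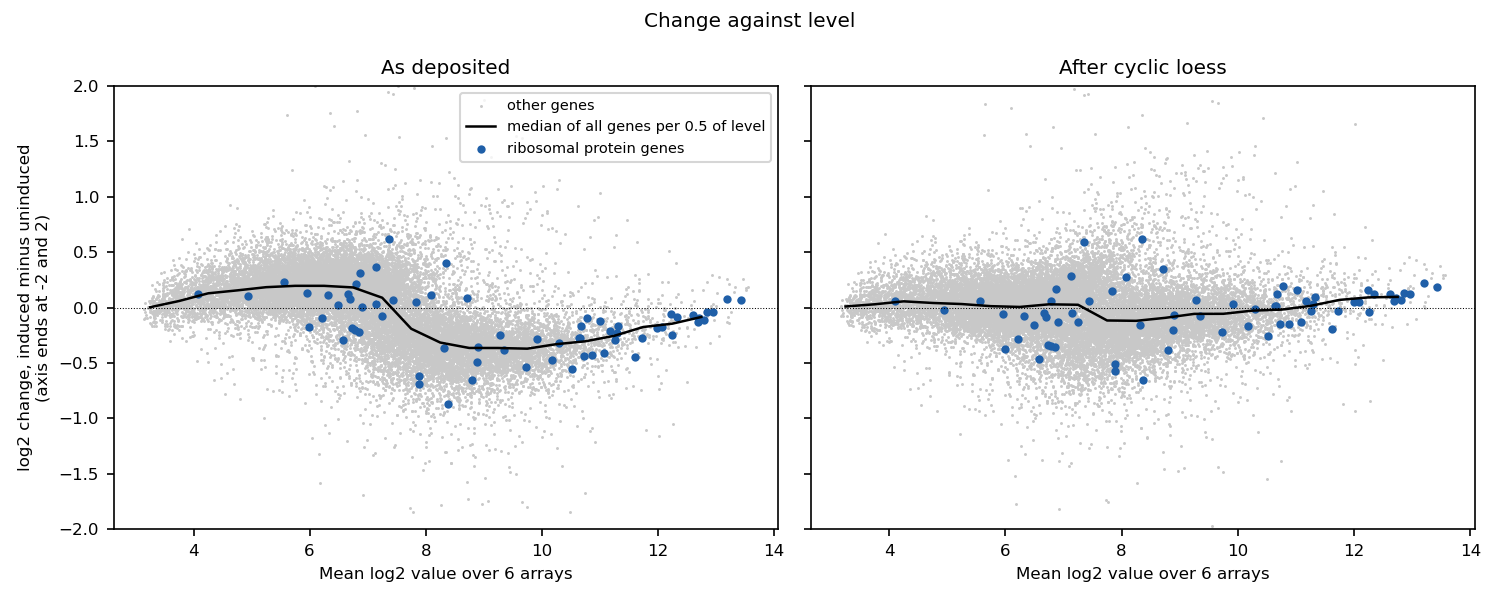
The log2 change (induced minus uninduced) is plotted against the mean log2 value over the 6 arrays for the 67 ribosomal protein genes (blue), the other genes (grey) and the median of all genes per 0.5 of level (line), as deposited on the left and after cyclic loess on the right. Of the 30 ribosomal protein genes at a level of 10 or more, 28 lie below 0 on the left and 10 on the right.

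Among the small subunit genes the lowest changes were those of Rps13, Rps7 and Rps3, and none passed the test. Rps13 (chromosome 7, 116331507 to 116334190 in GRCm38, also called mm10), a core protein of the small subunit, was at 9.22, 9.11 and 9.08 in the uninduced samples A, B and C and at 9.26, 8.20 and 7.98 in the induced samples A, B and C. Induced A was the highest of the 6 values and the other induced values the lowest, so the groups overlapped. The change was -0.66 (SE 0.27, 95% interval -1.26 to -0.05, limma adjusted p = 0.159), and it was -1.05 (adjusted p = 0.00314) without induced A and -0.38 after cyclic loess. Rps7 (chromosome 12, 28630847 to 28635953), a Diamond-Blackfan anaemia gene, was at 8.03, 8.51 and 8.03 in the uninduced and at 8.04, 7.56 and 7.12 in the induced samples. Its values on induced B and C were in the range of the background reference, its change was -0.62 (SE 0.23, adjusted p = 0.136), and without induced A it was -0.85 (adjusted p = 0.0167). Rps3, which lines the entry of the mRNA channel, was at 10.95 ± 0.08 in the uninduced and 10.51 ± 0.39 in the induced samples (mean ± SD, n = 3), a change of -0.44 (adjusted p = 0.161) as deposited and -0.15 after cyclic loess.

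Rps6, the substrate of the S6 kinases through which growth signals reach the ribosome, was at 13.43, 13.33 and 13.43 in the uninduced and at 13.53, 13.37 and 13.48 in the induced samples. These values overlapped, and the change was 0.07 (SE 0.12, 95% interval -0.21 to 0.34, adjusted p = 0.703). Rps19, the gene most often mutated in Diamond-Blackfan anaemia, was at 10.74, 10.64 and 10.96 in the uninduced and at 10.66, 10.43 and 10.42 in the induced samples. Its change was -0.28 (SE 0.14, adjusted p = 0.208) as deposited and 0.01 after cyclic loess. The 14 measured genes of that disease had a median change of -0.08 (0.038 after cyclic loess), with 8 below 0. Rps18, a protein of the subunit's head, had the highest change of the small subunit, with values of 8.10, 8.04 and 8.30 in the uninduced and of 8.14, 8.95 and 8.56 in the induced samples. Its change was 0.40 (SE 0.19, adjusted p = 0.189), and it was 0.61 (adjusted p = 0.0256) without induced A and 0.62 after cyclic loess. Its other 2 rows, in the range of background on all arrays, were at changes of 0.35 and 0.047. Rps15, another protein of the head, was at 6.86, 6.78 and 6.41 against 6.89, 6.81 and 6.99, a change of 0.21 (SE 0.15, adjusted p = 0.320), with all 6 values in the range of background. The 11 measured genes of the head had a median of -0.17 (0.01 after cyclic loess), with 7 below 0. The 6 measured genes of mRNA entry, exit and decoding had a median of -0.20 (0.047 after cyclic loess), with 5 below 0.

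In the large subunit the lowest change, and the lowest of all members, was that of Rpl34 (chromosome 3, 130726827 to 130730398). Its log2 values were 8.63, 9.002 and 8.81 in the uninduced samples A, B and C and 8.51, 7.35 and 7.97 in the induced samples A, B and C. All 3 induced values lay below the uninduced ones, induced A by the smallest margin, and induced B was in the range of background. The change was -0.87 (SE 0.25, 95% interval -1.42 to -0.32, limma adjusted p = 0.102), and it was -1.16 (adjusted p = 0.0074) without induced A and -0.65 after cyclic loess. The row annotated as the pseudogene Rpl34-ps2, picked after its values were seen, was at 12.15, 12.00 and 12.20 in the uninduced and at 12.13, 12.05 and 12.10 in the induced samples. Its change was -0.021, and the difference between both rows was not tested. Ribosomal protein genes have many processed pseudogenes, and rows of near-identical sequence can share signal. A row's level is therefore uncertain as a measure of 1 gene.

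Rpl27a, another protein of the large subunit, was at 8.21, 8.49 and 7.995 in the uninduced and at 8.04, 7.53 and 7.06 in the induced samples. Its change was -0.69 (SE 0.23, adjusted p = 0.123), and its values on induced B and C were in the range of background. Rpl10a, which forms the L1 stalk at the exit site of spent tRNA, was at 10.61, 10.85 and 10.94 in the uninduced and at 10.50, 10.12 and 10.13 in the induced samples. Its groups did not overlap, and its change was -0.55 (SE 0.15, adjusted p = 0.101), -0.68 without induced A (adjusted p = 0.0148) and -0.26 after cyclic loess. Rpl7 was at 10.14, 9.83 and 9.99 in the uninduced and at 10.25, 9.19 and 8.92 in the induced samples, a change of -0.53 (SE 0.28, adjusted p = 0.221) as deposited and -0.22 after cyclic loess. Here too induced A was the highest of the 6 values. Another row of Rpl7, in the range of background on all arrays, was at a change of 0.38. Rpl14 and Rpl32 did not overlap between groups either, with changes of -0.48 and -0.45 that did not pass the test (adjusted p = 0.159 and 0.145) and that were -0.17 and -0.20 after cyclic loess. Rpl7a was the fifth member whose induced values all lay below, at -0.18 (adjusted p = 0.325) as deposited and 0.046 after cyclic loess.

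The stalk recruits the factors that drive translation, and its 3 measured genes had a median change of -0.059 (-0.15 after cyclic loess), none past the test. Rplp0, its base, was at 11.09, 11.17 and 11.00 in the uninduced and at 11.10, 10.38 and 10.50 in the induced samples. Its change was -0.43 (SE 0.18, adjusted p = 0.166), and it was -0.65 (adjusted p = 0.0135) without induced A and -0.15 after cyclic loess. Rplp1 was at 12.34, 12.11 and 12.33 against 12.40, 12.21 and 11.99, a change of -0.06 (SE 0.15, adjusted p = 0.773), and 0.16 after cyclic loess. Rplp2 was at 6.20, 6.95 and 6.29 against 6.20, 6.86 and 6.44, a change of 0.02 (SE 0.22) as deposited and -0.16 after cyclic loess, all in the range of background.

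Rpl5 and Rpl11 bind the smallest ribosomal RNA of the large subunit and, when not in ribosomes, inhibit Mdm2, the ubiquitin ligase of p53. Rpl5 was at 6.59, 7.04 and 6.50 in the uninduced and at 6.63, 7.18 and 7.25 in the induced samples, a change of 0.31 (SE 0.20, adjusted p = 0.287) as deposited and 0.17 after cyclic loess. Rpl11 was at 6.69, 6.66 and 6.44 against 6.79, 6.77 and 6.59, a change of 0.12 (SE 0.13, adjusted p = 0.522) as deposited and -0.05 after cyclic loess. Both stayed in the range of background on all 6 arrays, where a value says little about an mRNA. Of the 67 members, 14 were in that range on all arrays, 41 were above it on all, and 12 were above it on some. The 14 included the canonical genes Rpl5, Rpl11, Rpl22, Rplp2, Rps15, Rps16, Rps20 and Rps29.

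Around the exit of the peptide tunnel 9 genes were measured, with a median change of -0.11 (0.067 after cyclic loess) and 6 below 0. Rpl26, which lies at that exit, was at 6.90, 7.04 and 6.92 in the uninduced and at 7.48, 7.19 and 7.29 in the induced samples. All 3 induced values were above the uninduced ones, but only that of induced A was above the background reference. The change was 0.37 (SE 0.13, adjusted p = 0.134). Rpl3, near the site of peptide bond formation, was at 11.31, 11.43 and 11.10 against 11.28, 10.79 and 10.55, a change of -0.41 (adjusted p = 0.181) as deposited and -0.13 after cyclic loess. Other rows of Rpl3 were at changes of 0.40, in the range of background, and -0.44. Rpl8, the neighbour of Rpl3 near that site, was at -0.17 (adjusted p = 0.443) as deposited and 0.097 after cyclic loess. Rpl41, the smallest ribosomal protein, was at 13.13, 13.20 and 13.13 in the uninduced and at 13.21, 13.23 and 13.26 in the induced samples. Its groups did not overlap, yet the change was 0.08 (SE 0.12, 95% interval -0.19 to 0.34, adjusted p = 0.636).

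**Figure D3:**
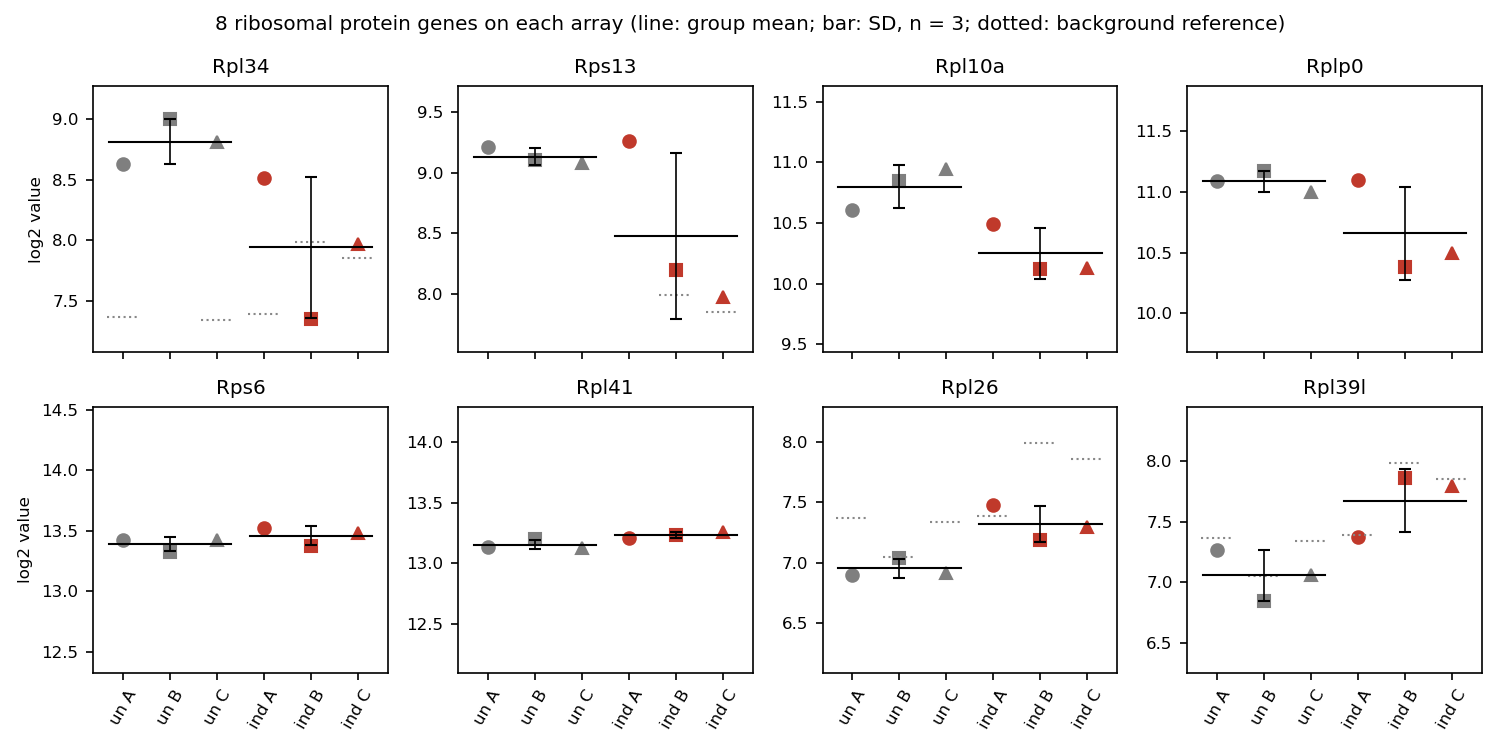
The log2 values of 8 ribosomal protein genes are plotted for each array (grey uninduced, red induced), with the group mean as a line, the SD (n = 3) as a bar, and dotted marks at the 95th percentile of the receptor genes on that array. Rpl34, Rps13, Rpl10a and Rplp0 are lowest on induced B or induced C, Rps6 and Rpl41 stay near 13.4 and 13.2, and Rpl39l stays under the dotted marks.

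The paralogs replace or resemble a canonical protein in some tissues. Rpl39l, known from testis as the counterpart of the tunnel protein Rpl39, had the highest change of all members. It was at 7.27, 6.84 and 7.06 in the uninduced samples A, B and C and at 7.37, 7.86 and 7.79 in the induced samples A, B and C, higher in 3 of 3 induced samples. The change was 0.62 (SE 0.17, 95% interval 0.25 to 0.99, limma adjusted p = 0.0982), and 0.77 (adjusted p = 0.0122) without induced A. All 6 values lay in the range of background, and the reference itself was higher on induced B and C. Rpl39 was at 7.91, 8.15 and 8.02 against 8.21, 8.03 and 8.19, a change of 0.12 (SE 0.13, adjusted p = 0.523). The 250 bases before the RefSeq start of Rpl39l are shown because they hold 2 copies of CCGGAAG, in capitals, and 0 of GAGGAAG.
Rpl39l (chr16:10169978-10170227, plus strand): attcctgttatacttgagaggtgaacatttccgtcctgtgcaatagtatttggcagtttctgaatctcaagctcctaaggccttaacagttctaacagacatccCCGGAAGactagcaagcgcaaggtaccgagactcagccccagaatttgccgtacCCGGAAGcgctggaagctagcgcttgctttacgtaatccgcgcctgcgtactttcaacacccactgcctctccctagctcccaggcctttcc

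Rps27l, a target gene of p53, was at 8.97, 9.23 and 9.03 in the uninduced and at 9.01, 8.57 and 8.59 in the induced samples. Its change was -0.35 (SE 0.16, adjusted p = 0.169), and it was -0.50 (adjusted p = 0.0307) without induced A and -0.069 after cyclic loess. Its counterpart Rps27 was at 6.65, 7.14 and 6.93 against 7.07, 7.19 and 6.47, a change of 0.00 (SE 0.20) as deposited and -0.13 after cyclic loess. Rpl7l1, which takes part in assembly of the large subunit, was at 9.40, 9.09 and 8.88 against 9.10, 8.14 and 8.66, a change of -0.49 (SE 0.23, adjusted p = 0.184) as deposited and -0.20 after cyclic loess. Rpl22l1, whose product can take the place of Rpl22, was at 6.12, 6.25 and 6.43 against 6.02, 6.90 and 6.22, a change of 0.12 (SE 0.21). Rpl22 was at 6.79, 6.94 and 6.74 against 6.79, 6.76 and 6.36, a change of -0.18 (SE 0.15) as deposited and -0.34 after cyclic loess. Neither gene exceeded the background reference on any array, and neither passed the threshold. Rpl3l, of striated muscle, was at 6.63, 6.55 and 6.79 against 6.66, 6.69 and 6.85, a change of 0.07. Rpl10l, of testis, was at 5.02, 4.70 and 4.92 against 4.95, 4.73 and 5.27, a change of 0.10. After cyclic loess Rpl22l1, Rpl3l and Rpl10l were on the other side of 0, and all their values lay in the range of background. Rps4l, also in that range, was at 5.296, 5.26 and 5.76 against 5.52, 5.76 and 5.73, a change of 0.23 (SE 0.16) as deposited and 0.056 after cyclic loess. Its counterpart Rps4x was at 11.83, 11.92 and 11.84 against 11.91, 11.55 and 11.29, a change of -0.28 (SE 0.16) as deposited and -0.033 after cyclic loess. Of these pairs, no difference between paralog and counterpart was tested.

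A member often had further rows on the array. There were 41 such rows, for 25 of the members, with changes from -0.55 to 0.57 and a median of -0.12. The change was below 0 for 28 of them, and 7 ran opposite to the row that stood for the gene. Not all of these rows are separate measurements. Several rows of Rps12 held the same values on every array, and a row each of Rps19 and Rpl23a repeated the row that stood for the gene. Apart from these, 15 rows were annotated as ribosomal protein pseudogenes, Rpl34-ps2 among them. Their changes ran from -0.47 to 0.48 with a median of 0.054, and 6 were below 0.

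The rest of the translation machinery had 1 gene past the threshold among the lists examined. Eif4ebp1, which encodes the mTORC1-controlled inhibitor of cap-dependent initiation, was at 11.46, 11.40 and 11.30 in the uninduced and at 10.84, 10.39 and 10.52 in the induced samples. The groups were apart by more than their spread, and the gene fell by 0.80 on the log2 scale (SE 0.15, limma adjusted p = 0.0265). The call held in 7 of 15 alternatives, with adjusted p from 0.000153 to 0.141 and changes from -0.94 to -0.47. It was lost after median centring, cyclic loess and centring on the members' median, and on leaving out any 1 array except induced A (adjusted p = 0.103, 0.0958 and 0.0767 without uninduced A, B and C, and 0.108 and 0.141 without induced B and C). Eif4ebp1 was the only 1 of 13 genes of mTORC1 and TOP regulation to pass (1.42% of all genes did). The median of these 13 was -0.36 as deposited and -0.09 after cyclic loess. At an unadjusted p under 0.05 by limma, 5 of them were lower (38.5%). So were 16.9% of all genes and 40.2% of those with a mean between the background reference and 10.

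Of 18 translation factors and other TOP mRNAs 0 passed, with 17 below 0 and 3 of them at an unadjusted p under 0.05 (16.9% of all genes were lower at that p, and 33.2% of those with a mean of 10 or more). Their median was -0.28 as deposited and -0.01 after cyclic loess. Eef1a1, the elongation factor that delivers tRNA, was at a change of 0.015 (SE 0.13), and Eef2, the translocase, at -0.20 (SE 0.14). Fau, a small subunit protein outside the symbol pattern, was at -0.11 (SE 0.14) as deposited and 0.09 after cyclic loess. The 5 measured TOP host genes of small nucleolar RNAs had a median of -0.58, and -0.39 after cyclic loess. Of these, 3 were lower at an unadjusted p under 0.05 (60%, against 16.9% of all genes). Snhg1 was at -0.58 (SE 0.18, adjusted p = 0.114) and Snhg3 at -0.71 (SE 0.24, adjusted p = 0.127). The 23 other initiation factors all lay below 0 as deposited and 20 of them after cyclic loess, with a median of -0.36, 0 past the threshold and 10 at an unadjusted p under 0.05 (40.2% of all genes with a mean between the background reference and 10 were lower at that p). Eif4a1, the helicase of initiation, was at a change of -0.08 (0.09 after cyclic loess) and Eif3c, of the scaffold factor, at -0.41. The 11 chaperones and importins had a median of -0.43, with the importins Kpnb1 at -0.10 (0.18 after cyclic loess) and Tnpo1 at -0.46. The 11 transcription factors reported at ribosomal protein promoters also had -0.43, with Myc at -0.43 (SE 0.17, adjusted p = 0.148) and Yy1 at -0.46 (SE 0.20, adjusted p = 0.166). The 8 genes of ribosome quality control had -0.39, with the ubiquitin ligases Rnf14 at -0.19 (0.13 after cyclic loess) and Rnf10 at -0.39. The lists of initiation factors, chaperones and importins, transcription factors and quality control had medians of -0.11, -0.16, -0.14 and -0.12 after cyclic loess and 0 genes past the threshold. The last 3 had 5, 7 and 4 genes lower at an unadjusted p under 0.05 (45.5%, 63.6% and 50%). The shares at that p were 16.9% of all genes and 40.2% of those with a mean between the background reference and 10. The differences between these shares were not tested. In each of these lists the median deviation was nearer to 0 on induced A than on induced B or C.

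**Figure D4:**
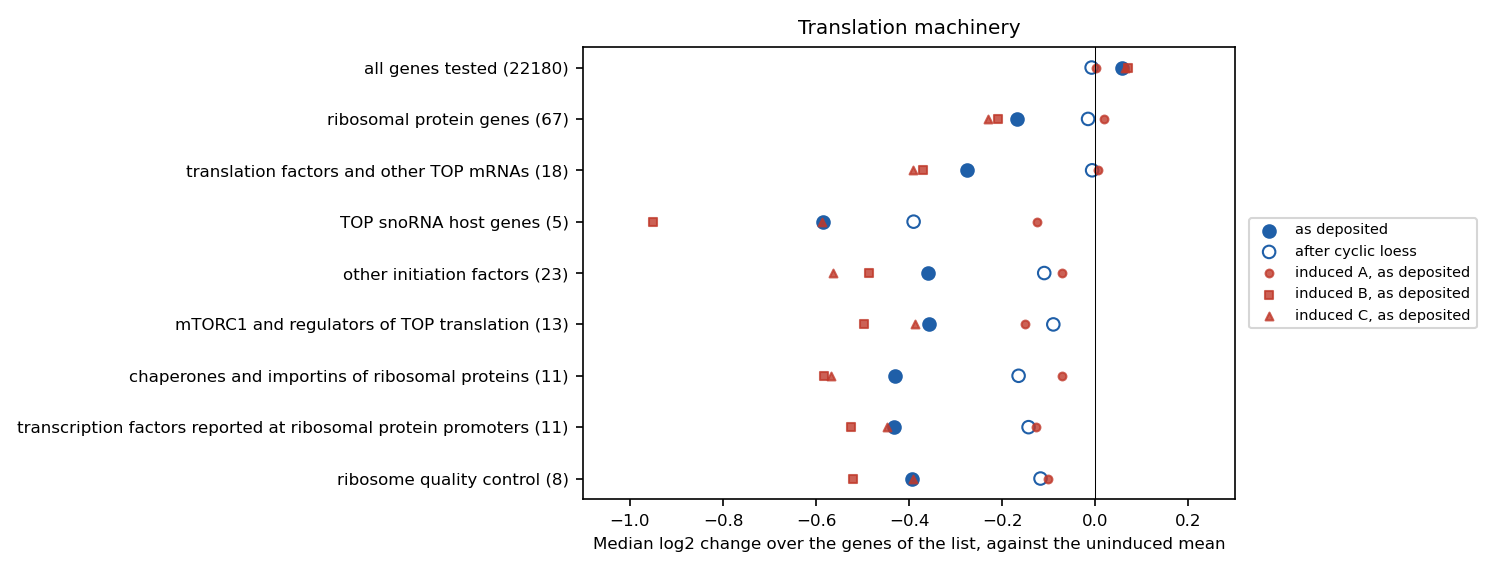
Each row is a list of genes (number measured in brackets), with its median log2 change as deposited (filled blue), after cyclic loess (open blue) and on each induced array against the uninduced mean (red). The 67 ribosomal protein genes are at -0.17 and -0.02, and induced A lies to the right of induced B and C in every list but that of all genes tested.

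Spi1 itself was at 8.801, 8.65 and 8.84 in the uninduced and at 9.13, 9.04 and 9.05 in the induced samples, a change of 0.31 (SE 0.12, limma adjusted p = 0.152). All 3 induced values lay above the uninduced ones, and the change was 0.60 after cyclic loess, 0.52 after quantile normalization, 0.17 after median centring and 0.65 on the members' median, past the threshold in none of these. It passed with array weights, at 0.23 (adjusted p = 0.0325). Whether its row reads the induced sequence is not known here. Of 10 myeloid markers 7 were above the background reference on all arrays, among them Itgam, Lyz2, Cd68 and Cebpa, and the mean log2 value of the list was 8.23 to 8.41 in the uninduced and 8.78 to 8.93 in the induced samples. By limma, 4 of the 10 rose (0.374% of all genes did), namely Lyz2 by 1.43, Cd68 by 1.36, Ptprc by 1.24 and Mpo by 1.11 on the log2 scale. Each was higher on induced A, B and C than on any uninduced array. Ptprc and Mpo were not among the 7 markers above the background reference on all arrays. Of the 10, 2 were in the range of background on all 6 arrays, where a value says little about an mRNA. The median change of the 10 was 0.42, and 3 of them were below 0, Cebpa at -0.40, Fcgr3 at -0.25 and Csf2rb at -0.095, none past the test. The part of this shift in the members' changes was not tested. Of the markers of 8 other cell types, only Tfrc, Kit and Pecam1 were above it on all arrays. The lists of hepatocyte, B cell, T cell, megakaryocyte and fibroblast markers had none.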

How the data were processed

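The authors deposited log2 expression values, 1 per transcript cluster and array (41345 rows, 6 arrays). The scale was read from the values. Partek and the build mm10 are named per the submitters' processing notes. The software version and the steps of background correction, normalization and summary were not given in the sources used here. Of the rows, 23521 had 1 symbol in GEO's platform annotation, 1814 had several and 16010 were not listed. Samples were grouped by title.

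From these values limma 3.58.1 in R 4.3.3 (lmFit, eBayes, two-sided, no covariate, no filter) compared the groups over 22180 genes, adjusted by Benjamini-Hochberg, with a threshold of 0.05. The gene test was tested on simulated data. The members and lists were chosen with earlier results of these data known. Values are given for members past the threshold, for the 6 largest measured rises and 6 largest falls, for paralogs and their counterparts and for Rpl5, Rpl11, Rps6, Rps19, Rplp0, Rplp1 and Rplp2. Rps3, Rpl7a, Rpl8, Rpl14, Rpl32, Rpl41 and the named myeloid markers were chosen after their values were seen. From each other list values are given for up to 4 members past the threshold or up to 2 of the highest mean. Sequences and positions are RefSeq's for GRCm38.p6. No protein sequences were used. The alternatives were the letter as a block, 4 normalizations, a filter on dim genes, another moderation, array weights, the mean of a gene's rows, canonical members only, a stricter threshold and leaving out each array.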

Additional observations from a re-analysis of the deposited data

How the results depend on the processing

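The counts of 0 members higher and 0 lower held under quantile normalization, median centring, cyclic loess, the dim filter, trend and robust moderation and the mean of a gene's rows. Canonical members only and the threshold of 0.01 could give no call where the main counts were 0. Induced A alone, chosen after seeing the data, also gave 0, in a comparison that called few genes at all. With the replicate block 1 member, Rpl34, was lower (-0.87, limma adjusted p = 0.0457; 0.784% of all genes higher and 1.92% lower). Whether the letters pair the samples is not known. Deviations of same-letter arrays from their group means correlated at -0.15, -0.15 and 0.32, and 2 of 6 arrays correlated best with their own letter. With 3 arrays per group such deviations depend on each other, so these values cannot settle it. Centring on the member median made 1 member, Rpl39l, higher (0.96, adjusted p = 0.045; 1.88% of all genes higher and 0.248% lower). Array weights gave 5 higher and 30 lower (26.3% and 25.6% of all genes), where uninduced C weighed 4.6, induced C 3.46 and the others 0.309 to 0.932. Leaving out 1 array gave 0 to 2 higher and 0 to 18 lower members, every call of them without induced A. The members' median ran from -0.31 after median centring to -0.02 after cyclic loess and 0.02 with induced A alone. Each alternative that gave a value moved it by less than 0.21, except centring on the member median. The 0.21 is the pooled SD within groups of the arrays' member medians. It holds the gap between induced A (9.45) and induced B and C (8.95 and 8.92), so a move below it does not show a stable median. Centring on the member median, for medians chosen after seeing the data, gave 0.17 for all members, 0.14 for the small and 0.21 for the large subunit. These follow from its shift of 0.34 in every change. Over all genes 83 were higher and 232 lower, but 174 and 425 with the block, 46 and 153 after median centring, 78 and 142 after cyclic loess, 418 and 55 on the member median, 5825 and 5681 with array weights and 43 and 55 at the threshold of 0.01. Leaving out 1 array gave 45 to 1998 higher and 47 to 3535 lower genes, the upper ends without induced A.

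Changes near 0 crossed it, in each case with no call on either side. After quantile normalization Rpl22l1 was at -0.025, Rpl3l at -0.064, Rps27 at -0.093, Rpl11 at -0.022, Rplp2 at -0.11, Kpnb1 at 0.075 and Rnf14 at 0.041. After median centring Rpl22l1 was at -0.023, Rpl3l at -0.067, Rpl10l at -0.036, Rps27 at -0.14, Rpl39 at -0.025, Rpl11 at -0.023, Rps6 at -0.076, Rplp2 at -0.12 and Eef1a1 at -0.13. After cyclic loess Rpl22l1 was at -0.072, Rpl3l at -0.0895, Rpl10l at -0.021, Rps27 at -0.13, Rpl11 at -0.049, Rps19 at 0.014, Rplp1 at 0.16, Rplp2 at -0.16, Fau at 0.088, Eif4a1 at 0.091, Kpnb1 at 0.18 and Rnf14 at 0.13. On the member median Rpl22 was at 0.15, Rps4x at 0.0599, Rps19 at 0.062, Rplp1 at 0.28, Fau at 0.23, Eef2 at 0.14, Eif4a1 at 0.26, Kpnb1 at 0.23 and Rnf14 at 0.15. With array weights Rpl22l1 was at -0.065, Rps27 at -0.29, Eef1a1 at -0.055 and Eif4a1 at 0.0084. With the mean of a gene's rows Rplp1 was at 0.045 and Eef1a1 at -0.085. Leaving out 1 array gave -0.14 to 0.22 for Rps27, -0.16 to 0.26 for Rplp2, -0.14 to 0.30 for Rpl22l1, -0.038 to 0.23 for Rpl10l, -0.16 to 0.044 for Rplp1, -0.047 to 0.053 for Eef1a1, -0.34 to 0.085 for Eif4a1 and -0.31 to 0.009 for Kpnb1. The cause was not tested.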
